A study of Mus musculus with 2 samples.

Results

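The doublecortin and LIS1 genes analysed here are Dcx, Dclk1, Dclk2, Pafah1b1, Pafah1b2, Pafah1b3, Nde1 and Ndel1, 8 of the 18193 genes named on the array. Every probe set that the platform annotation gives to exactly 1 of them was taken, 29 of the 45101 on the array. That rule reads gene names only, although the genes were picked with earlier results of these data known. Expression was read in cerebral cortex of newborn mice on 2 Affymetrix arrays, 1 for each genotype, each hybridised with RNA pooled from 3 animals. The control pool was MRTFA-/-;MRTF-BFlox/Flox at P0. The double knockout pool was MRTF-A-/-;MRTF-BF/F;GFAP-Cre at P0, although its description gives P1. Both pools thus lacked Mrtfa by genotype and carried floxed Mrtfb, and by label they differed in the Cre transgene, which is driven by a GFAP promoter according to its name. If the P1 description holds, the pools also differed in age, which cannot be told apart from genotype here. The sources used here do not say which cells recombined, or how completely. With 1 array per pool there was no replicate, no test was made, and every difference below describes these 2 pools.

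Newborn cortical neurons reach their layer by extending a leading process and pulling the nucleus after it along microtubules. Doublecortin and its kinase relatives bind and stabilise microtubules in that process, while LIS1 regulates the motor dynein, to which the coiled-coil scaffolds NDE1 and NDEL1 connect it. In humans, loss of DCX or of a copy of the LIS1 gene PAFAH1B1 stops migration short and leaves a smooth, lissencephalic cortex. The transcription factor SRF binds the CArG box and uses MRTF-A and MRTF-B as coactivators, and, as labelled, the comparison addresses what removing MRTF-B adds where MRTF-A is already missing. The Mrtfa signal itself also differed between the pools, as given below, and the part of that difference in the results was not tested.

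Promoter windows are shown because the deleted gene encodes an SRF coactivator. RefSeq windows of assembly GRCm38.p6, each of 300 bases with 250 before a gene's start, were held for 7 of the 8 genes, all but Pafah1b3, as 12 windows in all. The CArG box was searched on both strands, which read the same for this motif. It was in 1.63% of all 32851 windows and in 0 of the 12. With 1 letter off allowed, 21.1% of all windows held it, and so did 2 of the 12, those of Dclk2 and Ndel1. The 250 bases before the start are printed 5′ to 3′ for Dcx, which had the largest difference of the 8 genes, and for the 2 genes with a near match, whose capitals mark it. A match describes the letters only and shows no binding.
Dcx (chrX:143933220-143933469, strand -): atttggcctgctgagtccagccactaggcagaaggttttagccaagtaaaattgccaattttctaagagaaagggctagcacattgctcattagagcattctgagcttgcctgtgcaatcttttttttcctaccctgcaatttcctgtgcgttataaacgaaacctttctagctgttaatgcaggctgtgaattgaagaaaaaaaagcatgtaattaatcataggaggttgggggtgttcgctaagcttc
Dclk2 (chr3:86920885-86921134, strand -): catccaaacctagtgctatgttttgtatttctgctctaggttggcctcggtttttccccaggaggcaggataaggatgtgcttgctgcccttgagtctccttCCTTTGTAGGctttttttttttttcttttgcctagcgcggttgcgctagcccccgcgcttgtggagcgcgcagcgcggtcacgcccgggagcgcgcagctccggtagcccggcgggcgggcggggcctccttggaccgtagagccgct
Ndel1 (chr11:68853136-68853385, strand -): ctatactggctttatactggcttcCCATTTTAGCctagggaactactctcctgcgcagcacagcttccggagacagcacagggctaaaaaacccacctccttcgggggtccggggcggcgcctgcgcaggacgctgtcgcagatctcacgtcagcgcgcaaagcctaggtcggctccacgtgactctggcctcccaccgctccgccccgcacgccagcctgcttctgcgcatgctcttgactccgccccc
The near match began 148 bases before the start of Dclk2 and 226 bases before that of Ndel1. G and C made up 41.6% of these bases before Dcx and 63.6% before Ndel1. A second Dcx window, which overlaps the printed stretch, held no near match either.

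The values are MAS5 signals, a probe set brightness on a linear scale. The arrays were centred on each other by 0.0037 log2, and signals under a floor of 178.6, the median of all signals, were set to it. A gene or probe set under the floor in both pools was treated as not measured. One above it in at least 1 pool counted as measured. Differences are in log2 units, double knockout minus control. At this floor 11636 genes were measured, with a median difference of 0.01 and an SD of 0.19 over those above the floor in both pools. Mrtfb read 3359 in the control and 2482 in the double knockout pool, a difference of -0.44 on its brightest probe set. Its mean was -0.33 ± 0.15 (SD, 2 probe sets). Mrtfa read 601.6 and 262.4, a difference of -1.20, although both pools are null by label. The sources used here do not place these probe sets against the deleted parts, so they do not check the labels. Srf itself read 582.3 and 471.1, a difference of -0.31. The tissue label was checked on 9 measured markers of cortical projection neurons, all above the floor in both pools, among them Tbr1 at 1553 and 1720 and Neurod6 at 4572 and 4738. All 10 measured markers of striatal neurons were above it in both pools too, among them Penk at 2928 and 2234, so the check does not show cortex alone.

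Of the 8 genes 7 were measured, and all 7 read higher in the double knockout pool on their brightest probe set, against 52.9% of all measured genes. Their median was 0.17, and 6 of the 7 lay between 0.04 and 0.26. The exception was Dcx at 0.43. It alone passed 0.32 log2, the size at which a gene was counted as higher, a mark that 3.45% of all measured genes passed upward and 5.55% downward. After quantile normalization those shares were 4.28% and 4.45%, and Dcx still was the only member past the mark. None of the 7 passed 1.5-fold, which 1.14% of measured genes did in either direction. Of the 29 probe sets 23 were above the floor in both pools, 1 in the control pool alone and 5 in neither. Among the 23, 20 read higher and 3 lower, against 50.9% higher over all such probe sets of named genes, and their median was 0.14. Probe sets of a gene read the same 2 pools, and some share a target transcript, so they are not replicates.

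**Figure D1:**
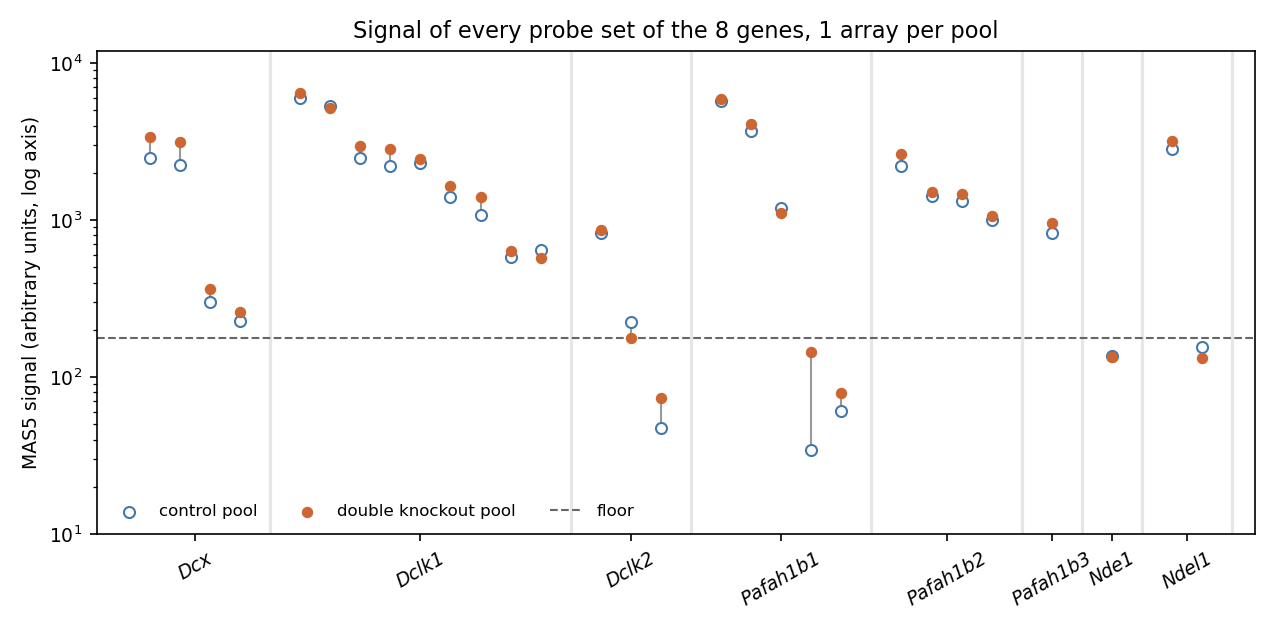
MAS5 signal (log axis) of all 29 probe sets, ordered by brightness within each gene, in the control pool (open circles) and the double knockout pool (filled circles), with the floor of 178.6 dashed. Both bright probe sets of Dcx show a clear gap between the circles, while those of Pafah1b1 at the top of its range nearly coincide; 5 probe sets lie under the floor in both pools.

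Dcx, the X-linked gene of the microtubule-binding protein of migrating neurons, read higher in the double knockout pool on all 4 of its probe sets. The brightest, 1418139_at, read 2505 in the control and 3383 in the double knockout pool, 1.35-fold higher. The next, 1418141_at, read 2245 and 3125, a difference of 0.47 and the largest of the 23. Both dimmer probe sets went the same way by less. Probe set 1448974_at read 299.6 and 364.2, a difference of 0.28. Probe set 1418140_at, close to the floor, read 229.0 and 258.6, a difference of 0.17. The mean over the 4 was 0.34 ± 0.14 (SD, 4 probe sets). Among the 455 genes with exactly 4 probe sets above the floor in both pools, 11.0% likewise had all 4 higher. Of 716 genes with at least 4 probe sets above the floor in both pools, 0 had a higher mean than Dcx. The nearest were Lpcat1 at 0.32 and Eif3c at 0.25, named after their values were seen. This ranking was not planned, and its cutoff of 4 is the number of probe sets of Dcx. Genes with fewer were left out, among them Gfap with a mean of 0.58 over 2 probe sets. Among the genes compared, Dcx stayed first without centring and after quantile or loess normalization. With the floor at the 25th percentile it had 8 genes of 1271 above it, and at the 75th only 2 of its probe sets remained, too few for the comparison.

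**Figure D2:**
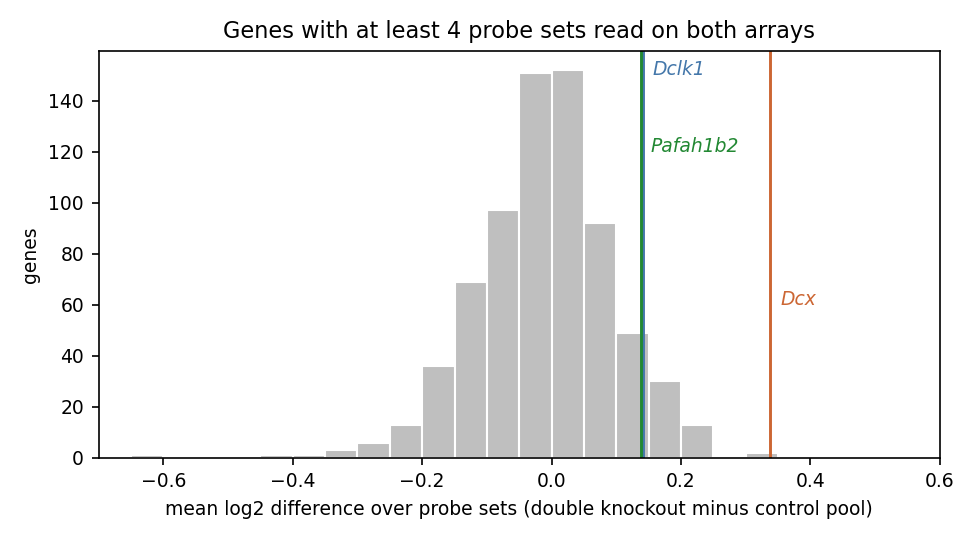
Number of genes by mean log2 difference over their probe sets, for the 716 genes with at least 4 probe sets above the floor in both pools. Genes with fewer are not shown. Lines mark Dcx at 0.34, at the right end of the distribution, and Dclk1 and Pafah1b2, which nearly coincide at 0.14 with 49 and 54 genes above them.

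Dclk1, which joins doublecortin domains to a protein kinase domain and also yields shorter transcripts with only part of that protein, was read by 9 probe sets. They did not move as a block. The brightest, 1435940_at, read 6017 in the control and 6423 in the double knockout pool, a difference of 0.09. The next brightest, 1450863_a_at, read 5351 and 5205, a difference of -0.04. The largest differences came from 1451289_at, which read 1084 and 1409 (0.37), and from 1436659_at, which read 2205 and 2845 (0.36). These 2 passed 0.32 log2, as did 2 of Dcx and none of the other 19, so 4 of 23 did, against 3.37% of all such probe sets. At the other end 1451917_a_at read 646.5 and 577.2, a difference of -0.17. The 9 spanned 0.54 log2 with a mean of 0.14 ± 0.18 (SD, 9 probe sets), and 7 were higher. That SD matches the 0.18 pooled over the 4858 genes with at least 2 probe sets above the floor in both pools. Even 3 probe sets designed on the same transcript differed by 0.13, 0.23 and 0.37. The value of Dclk1 therefore depended on the probe set read, and the sources used here do not say which of its transcripts each detects.

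Dclk2, the related doublecortin-domain kinase, was read on both arrays by 1 of its 3 probe sets. That probe set, 1428222_at, read 823.1 in the control and 865.4 in the double knockout pool, a difference of 0.07. A second, 1458488_at, read 226.1 in the control pool and 177.3, just under the floor, in the other, at least 1.27-fold lower. The third was under the floor in both pools, at 47.2 and 73.5. The 2 measured probe sets of Dclk2 thus pointed in opposite directions.

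**Figure D3:**
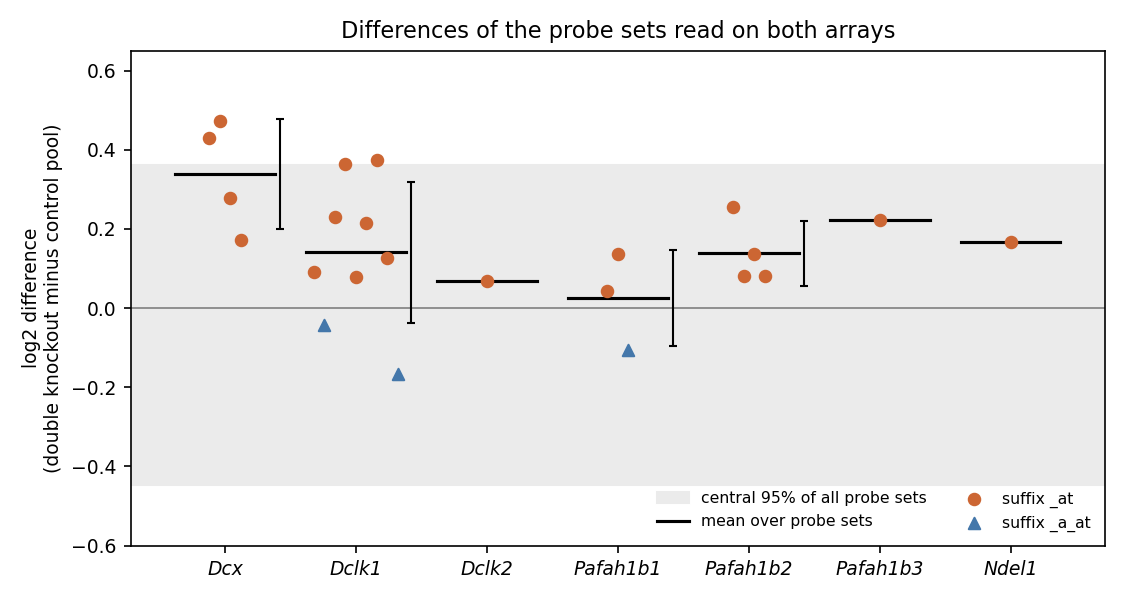
Log2 difference, double knockout minus control pool, of the 23 probe sets above the floor in both pools (circles, suffix _at; triangles, suffix _a_at), with the mean over probe sets as a line, its SD as a bar, and the central 95% of all such probe sets of named genes (-0.45 to 0.36) shaded. The brighter pair of Dcx and a pair of Dclk1 lie above the shaded range, and the 3 points under 0 are triangles.

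Pafah1b1 encodes LIS1, the WD-repeat regulator of dynein and the non-catalytic subunit of the brain platelet-activating factor acetylhydrolase. It was bright and nearly equal in both pools. Probe set 1448578_at read 5752 in the control and 5947 in the double knockout pool, a difference of 0.04. Probe set 1417086_at read 3697 and 4077, a difference of 0.14. Probe set 1460199_a_at went the other way, reading 1188 and 1107, a difference of -0.10. The mean was 0.03 ± 0.12 (SD, 3 probe sets), so the spread between its probe sets exceeded the difference. The other 2 probe sets stayed under the floor in both pools, at 34.5 and 144.1 and at 61.3 and 79.3, and give no fold.

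The catalytic subunits of that acetylhydrolase, Pafah1b2 and Pafah1b3, read higher in the double knockout pool. All 4 probe sets of Pafah1b2, which share 1 target accession in the annotation, went the same way. The brightest, 1422792_at, read 2220 in the control and 2657 in the double knockout pool, a difference of 0.26. The other 3 differed by less, with 1422793_at reading 1333 and 1468 (0.14). Probe set 1450755_at read 1432 and 1520 (0.08). Probe set 1422791_at read 997.3 and 1057 (0.08). Their mean was 0.14 ± 0.08 (SD, 4 probe sets), about the size of the mean of Dclk1. Pafah1b3 had a single probe set, 1416410_at, which read 823.3 and 963.2, 1.17-fold higher. Among all measured genes 8.24% lay above Pafah1b3 and 6.10% above Pafah1b2 on the brightest probe set, while 1.36% lay above Dcx.

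The scaffolds that tie LIS1 to dynein were unevenly covered. Ndel1, the form that persists in neurons after division, read 2852 in the control and 3208 in the double knockout pool on 1422568_at, 1.12-fold higher. Its other probe set was under the floor in both pools, at 156.1 and 132.5. Nde1, best known from dividing progenitors, had 1 probe set, 1435737_a_at, under the floor at 135.4 and 134.8. Its level can therefore only be bounded by the floor, and no direction is given for it.

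The lists of the wider pathway had smaller medians than the 7 measured members, with genes going both ways and some differing by more than any member. No test compared the lists. Dynein and dynactin, the motor and its cofactor that LIS1 acts on, had a median of 0.03 over 17 measured genes, 10 higher and 7 lower, and none passed 0.32 log2 in either direction. That median was -0.0005 after quantile normalization and 0.003 after loess centring, so it has no settled direction. Dync1i1 and Dync1i2, the dynein intermediate chains, both differed by 0.13, and the dynactin subunit Dctn1 by 0.10. Dctn6, another dynactin subunit, read -0.24 on the brighter of 2 probe sets, whose mean was -0.05 ± 0.27 (SD, n = 2 probe sets). Partners and modifiers of LIS1 and NDEL1 had a median of 0.07 over 14 genes, 9 higher and 5 lower, with 1 past 0.32 log2. That gene was Brap, reported to act with NDE1 and LIS1 in progenitors, which read 593.0 and 817.5 on its only probe set, a difference of 0.46. Cdk5r2, an activator of the kinase Cdk5 that phosphorylates both doublecortin and NDEL1, differed by -0.28. The kinetochore protein gene Cenpf, read close to the floor, differed by 0.25, and Clip1, which tracks growing microtubule ends, by 0.19. The mean of Clip1 was 0.08 ± 0.16 (SD, 2 probe sets).

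Regulators and partners of doublecortin had a median of 0.07 over 18 genes, with 14 higher and 4 lower. The 2 past 0.32 log2 went opposite ways. Mapre3, the microtubule end-binding protein EB3, read 1826 in the control and 1330 in the double knockout pool, a difference of -0.46 on its only probe set. Mapk8ip2, a JNK scaffold, read 0.36 on the brightest of 5 probe sets, whose mean was -0.05 ± 0.25 (SD, n = 5 probe sets). Mapk8ip1, a related scaffold, differed by -0.28. Mapt, the microtubule protein tau, read 0.20, and its 4 probe sets averaged 0.19 ± 0.09 (SD). When probe sets were averaged per gene, the median of this list was -0.04, so its direction depended on that choice. Other doublecortin-domain genes were dim: 2 of 6 were measured, Dclk3 at -0.06 and Dcdc2a at -0.02.

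Further genes of lissencephaly and tubulin disorders had a median of 0.06 over 17 genes, 14 higher and 3 lower. On the brightest probe set only Mast1, a microtubule-associated kinase, passed 0.32 log2, at 0.36. The mean of Mast1 was 0.01 ± 0.49 (SD, 2 probe sets). Reln, the secreted signal that positions cortical neurons, differed by 0.29. The laminin gene Lamb1 read 0.27 on its brightest probe set, and its mean was just past the mark at 0.32 ± 0.07 (SD, 2 probe sets). Macf1, which links actin to microtubules, read 0.17, with a mean of 0.19 ± 0.05 (SD, 3 probe sets). Of the tubulins, Tuba1a differed by 0.02, Tubb2b by 0.01, Tubb3 by 0.05 and Tubb5 by 0.02, and Tubb2a by 0.12 with a mean over both its probe sets of 0.05. Genes of immature and migrating neurons had a median of 0.06 over 25 genes, 18 higher and 7 lower, and 0 passed 0.32 log2 either way. Within that list Crmp1 differed by 0.18, Ncam1 and Sox4 by 0.15 each, and Rnd2, a small GTPase of migrating neurons, by -0.30. The mean of Sox4 was 0.12 ± 0.18 (SD, 5 probe sets). Dcx at 0.43 lay above all 25 of these genes. Cdk5, Tubb3 and Map1b stand on more than 1 list.

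**Figure D4:**
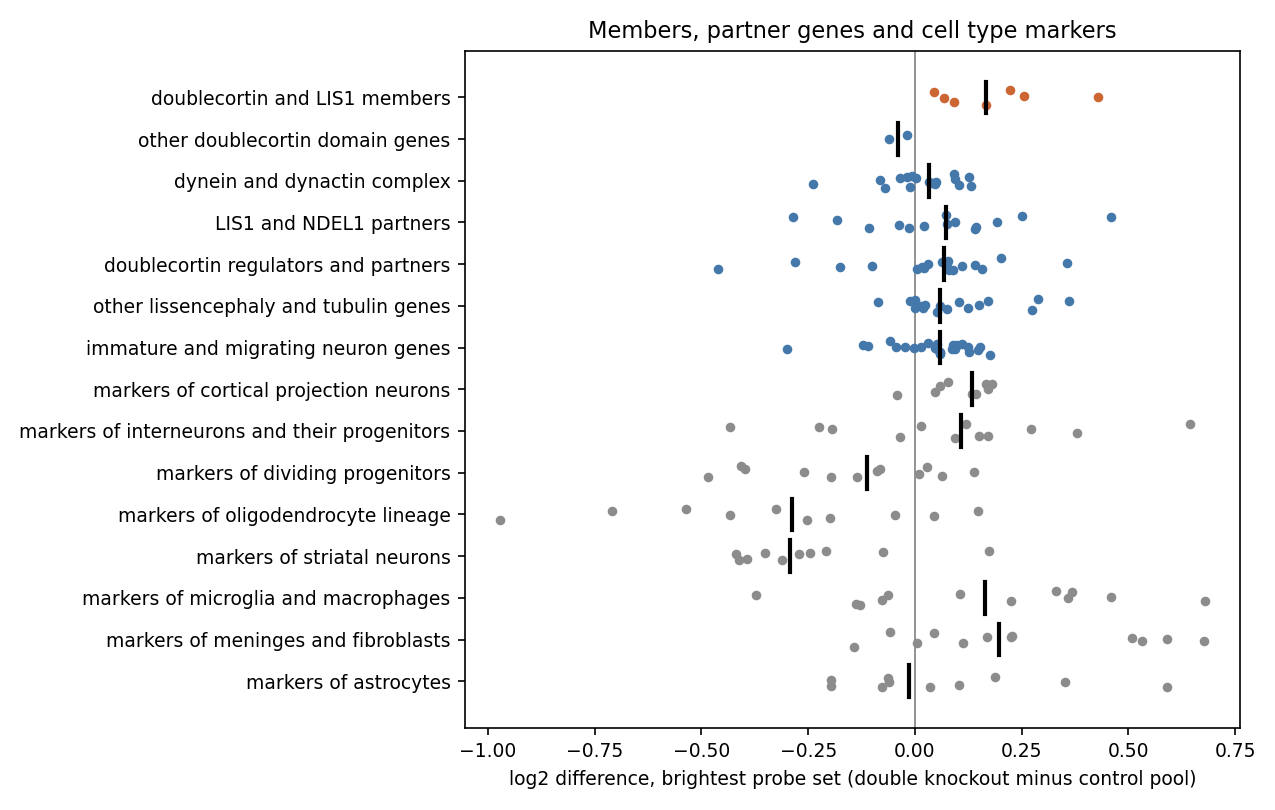
Log2 difference on the brightest probe set, double knockout minus control pool, of each measured gene (points) with the list median (bar), for the 7 measured members, partner and pathway genes, and cell type markers. The members lie between 0.04 and 0.43, while the medians of the 5 larger pathway lists lie between 0.03 and 0.07 and those of striatal and oligodendrocyte markers near -0.29.

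Markers of cell types that express or lack these genes also differed between the pools, and in bulk RNA a change in the number of cells cannot be told apart from a change in RNA per cell. Cortical projection neuron markers were higher in 8 of 9 cases with a median of 0.13, a summed signal of 14700 in the control and 15900 in the double knockout pool, and their largest differences were 0.18 for Bcl11b and 0.17 each for Emx1 and Cux1. This rested on the brightest probe sets: averaged over probe sets 5 of the 9 were higher with a median of 0.02, and Bcl11b and Cux1 turned to -0.06 and -0.12. Interneuron markers were higher in 8 of 12 with a median of 0.11, or in 6 of 12 with a median of 0.04 when averaged over probe sets, and had summed signals of 18600 and 19500. Their largest differences were 0.64 for Dlx1 and 0.38 for Maf, and Sp8, under the floor in the double knockout pool, was at least 1.35-fold lower. Markers of dividing progenitors were lower in 8 of 12, with a median of -0.11, summed signals of 6680 and 6240, and Cdk1, Insm1 and Hmmr at -0.48, -0.41 and -0.40. Several were dim: Hmmr read 243.4 and 185.1, close to the floor, and Eomes was under it in the control pool. Sox2, the brightest gene on that list, read 2795 and 2821, so it weighs on these sums in the other direction. Striatal markers were lower in 9 of 10, with a median of -0.29, summed signals of 19500 and 17600, and Drd2, Six3 and Penk at -0.42, -0.41 and -0.39.

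Glial and surrounding cells moved in both directions. Oligodendrocyte markers were lower in 8 of 10, with a median of -0.29, summed signals of 23400 and 19900, and Mobp, Mag and Ugt8a at -0.97, -0.71 and -0.54. Those named are genes of myelin. Of the lineage and precursor genes on the list, Pdgfra read 0.15, Olig1 0.04, Olig2 -0.05, Cspg4 -0.20 and Sox10 -0.25. Averaged over probe sets, Pdgfra was at -0.02 and Cspg4 at 0.01. Meningeal markers were higher in 10 of 12, with a median of 0.20, summed signals of 13000 and 14700, and Aldh1a2, Igf2 and Islr at 0.68, 0.59 and 0.53. Crym, the brightest gene on that list, read 4897 and 4448, so it weighs on these sums in the other direction. Whether it marks meninges in this tissue was not checked. Markers of microglia and macrophages, taken as 1 list, were higher in 7 of 12 and lower in 5, with a median of 0.16. Averaged over probe sets, 6 of the 12 were higher with a median of 0.10. Their summed signals were 7900 and 8620, and Mrc1, C1qc and P2ry12 were at 0.68, 0.46 and -0.37. Astrocyte markers were higher in 5 of 10, with a median of -0.01, or 0.04 when averaged over probe sets, summed signals of 39700 and 39000, and Gfap, Gjb6 and Clu at 0.59, 0.35 and -0.20. On the brightest probe set Dcx read 0.43, and its mean over probe sets was 0.34. Markers above 0.43 included Dlx1, Aldh1a2, Mrc1 and Gfap, and none of the 9 projection neuron markers. The part of the cell types in the differences of Dcx and its relatives was not tested.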

How the data were processed

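Signals in cortex of 2 pools were analysed. The authors deposited MAS5 intensity signals per probe set, per the submitters' processing notes. The notes give neither version nor scaling target. The trimmed mean signal was 500.0 in both pools, so the deposited signals were already on a common scale. RNA was extracted with Trizol, and cRNA was labelled with biotin from 6 ug, per the labels' protocols. Probe sets were named from platform annotation, and Entrez identifiers of 99.4% of the 34945 naming 1 gene matched RefSeq (GRCm38.p6). The 64 array controls were left out. Signals were centred on the median log2 difference of bright probe sets, then set to a floor at the 50th percentile. The brightest probe set gave the gene's value, and every member probe set is given. The higher and lower mark was 1.25-fold (0.32 log2). No test was made. SDs cover probe sets of a gene, not animals, and pooling hides how the 3 animals differ; the number of arrays limits precision. Named genes were all 8 members, Mrtfa and Mrtfb, for each pathway list those past the mark and otherwise the largest differences up to 4, and 3 per marker list; others were named for their role. Members, lists and marks were chosen with earlier results of these data known. Protein sequences were not used here. The functions were tested on simulated data with changes in bright genes that were larger than those of the members. Changes as small as those of the members were not tested in that way. Python 3.11.15, numpy 2.4.6, pandas 2.3.3, statsmodels 0.14.6 and matplotlib 3.10.9 were used.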

Additional observations from a re-analysis of the deposited data

How the results depend on the processing

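The alternatives were no centring, quantile normalization, loess centring (span 0.3), floors at the 25th and 75th percentiles, a pseudocount or no floor, the mean or median over probe sets, and leaving out the suffixes _x_at and _s_at. Leaving out _a_at, with the brightest probe set or the mean, was added after the values were seen. Leaving out _x_at and _s_at, leaving out _a_at with the brightest probe set, and using no floor left the 7 measured members at the same values, since their brightest probe sets are bright and end in _at. Under the others all 7 read higher, with Dcx between 0.34 and 0.46, Pafah1b2 between 0.11 and 0.28 and Pafah1b1 between 0.01 and 0.09. Dcx alone passed 0.32 log2 under these. Nde1, measured only at lower floors, differed by 0.02 with the floor at the 25th percentile and -0.01 with none. The median of doublecortin regulators was -0.035 with the mean over probe sets, -0.014 with their median and -0.048 with the mean without _a_at. With the median over probe sets, LIS1 partners were at 0.0017, immature neuron genes at 0.017 and other lissencephaly genes at 0.014. The share of all genes past the mark was 6.03% higher and 11.8% lower with the floor at the 25th percentile, 1.36% and 2.39% at the 75th, 1.52% and 2.69% with a pseudocount, and 8.53% and 19.3% with no floor. No paired analysis was possible because each group is 1 pooled array. Dim probe sets limit Nde1 and Dclk2.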

Other observations

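Among member probe sets above the floor in both pools, those that read lower were all of 1 kind. Affymetrix gives the suffix _a_at to probe sets that recognise several transcripts of a gene, and plain _at to probe sets without such a mark. Of the 3 member probe sets with _a_at above the floor in both pools, belonging to Dclk1 and Pafah1b1, 3 read lower, while of the 20 with _at 0 did. Outside these 23, the Dclk2 probe set above the floor in the control pool alone ends in _at and read at least 1.27-fold lower. This was noticed after the values were seen. Over all named genes the kinds did not differ in this way: 49.6% of the _a_at and 49.4% of the _at probe sets read lower. Within the 1170 genes that have both kinds, the _a_at mean minus the _at mean had a median of -0.02 and was below 0 in 53.6%. It was -0.32 for Dclk1, a value at least as low as which was found in 8.29% of these genes, and -0.20 for Pafah1b1, with 19.1% at least as low. Without _a_at probe sets the mean over probe sets was 0.21 for Dclk1 and 0.09 for Pafah1b1. Whether the transcripts of these genes shifted against each other was not tested.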
